A study of Homo sapiens with 6 samples.

Results

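The 4 genes described here are BDNF, which encodes the neurotrophin brain-derived neurotrophic factor, NTRK2, which encodes its receptor TrkB, FURIN, which encodes a protease that cleaves neurotrophin precursors, and BEX3, which encodes a partner of the p75 neurotrophin receptor. They were taken by gene name from a table of 4101 genes, in which all 4 were found. RNA was sequenced from 6 samples of SH-SY5Y, an established human line of neuroblastoma cells whose genotype the labels give as wild type. The METH-treatment group (n = 3) received 2 mM methamphetamine, a psychostimulant, for 24 h, and the PBS-treatment group (n = 3) received phosphate-buffered saline for the same time per the study's methods. All samples came from 1 cell line in the same medium, the labels give the time as day 0, and they do not say whether the samples of a group were separate cultures, so that the p-values measure the spread between these samples, which may be technical.

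Neurotrophins are secreted proteins that keep neurons alive and shape their connections. They are made as longer precursors, which furin and related convertases cut inside the cell, and which other proteases can cut outside it. Mature BDNF binds TrkB, which signals through the RAS and MAP kinase, PI3 kinase and phospholipase C arms, whereas precursors bind the p75 receptor together with sortilin. Brain BDNF is known as a gene with several promoters that respond to neuronal activity and to factors of the CREB family. BEX3 is a small protein that binds the inner part of p75.

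One RefSeq promoter window each of BDNF, NTRK2 and BEX3 is shown because it holds the core of the cAMP response element, TGACG, which CREB and CREM can bind, and because CREM and other regulators of the BDNF promoters are among the genes compared below. A window runs from 250 bases before to 50 after an annotated start (build GRCh38.p14), and is written 5′ to 3′ along the gene with capitals for TGACG or its complement CGTCA and for the E-box CACGTG.
BDNF (chr11:27701572-27701871, minus strand): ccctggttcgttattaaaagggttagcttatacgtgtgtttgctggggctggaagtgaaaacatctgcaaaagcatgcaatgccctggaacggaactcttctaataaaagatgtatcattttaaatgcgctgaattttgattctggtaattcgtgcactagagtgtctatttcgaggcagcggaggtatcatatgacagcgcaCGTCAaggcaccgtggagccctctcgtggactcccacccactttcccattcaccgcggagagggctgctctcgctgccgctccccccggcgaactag
NTRK2 (chr9:84670099-84670398, plus strand): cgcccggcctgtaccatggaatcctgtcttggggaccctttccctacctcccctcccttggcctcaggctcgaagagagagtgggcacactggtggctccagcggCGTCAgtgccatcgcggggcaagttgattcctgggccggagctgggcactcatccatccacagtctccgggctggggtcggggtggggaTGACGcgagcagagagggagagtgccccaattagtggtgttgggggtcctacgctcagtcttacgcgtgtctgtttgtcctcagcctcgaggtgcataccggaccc
BEX3 (chrX:103376288-103376587, plus strand): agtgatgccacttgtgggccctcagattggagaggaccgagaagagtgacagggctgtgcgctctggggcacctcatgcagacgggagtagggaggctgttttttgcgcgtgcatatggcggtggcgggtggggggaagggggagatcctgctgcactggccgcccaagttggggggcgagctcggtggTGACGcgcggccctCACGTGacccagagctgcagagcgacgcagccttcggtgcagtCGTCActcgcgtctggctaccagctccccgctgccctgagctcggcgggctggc

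This core was searched on both strands in all windows of the 4 genes. It lay in 1 of 5 windows of BDNF, in 1 of 4 of NTRK2, in 1 of 3 of BEX3 and in 0 of 4 of FURIN, while 24.6% of all 35116 RefSeq windows of that length hold it. In the BDNF window it begins at base 204, in the NTRK2 window at bases 106 and 195, and in the BEX3 window at bases 190 and 247. The whole element TGACGTCA, which contains the core, was in none of the windows of the 4 genes and in 1.85% of all windows. The E-box lay in 1 window of BDNF, not the one shown, and in 1 of BEX3, and in 7.26% of all windows. A match describes these letters and does not show that a factor binds there.

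The values of the table were headed FPKM but are whole multiples of 1 step per column, whatever the gene, so that they are CPM, read counts relative to the size of the library, not divided by the length of the gene. The libraries are called after their columns, METH 1 to METH 3 and PBS 10 to PBS 12. The library sizes behind them, in M reads, ran from 85.7 to 107 with METH and from 86.8 to 110.77 with PBS. Every gene of the table carries the authors' mark of significance for METH against PBS, so the table was selected on the comparison reported here and genes without a marked difference were not analysed here. Differences below are log2 fold changes, METH minus PBS, after adding 0.1 CPM to each value, which understates the change of low genes. They were tested with limma, with p-values adjusted over the 4101 genes after Benjamini and Hochberg, and an adjusted p under 0.1 was taken as past the threshold. Because these genes had been selected on the same comparison, the adjusted p-values are too small to be read as false discovery rates. Up-regulated and down-regulated below mean past this threshold only, and the closing section gives the calls with adjustment as for 20000 genes. An exact permutation test of 3 libraries against 3 cannot give a 2-sided p below 0.1.

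Of the 4 genes, FURIN was up-regulated, NTRK2 was down-regulated, and BDNF and BEX3 did not pass the threshold. That is 1 of 4 in each direction, near the shares of the whole table, of which 33.3% was past the threshold with higher and 35.8% with lower expression in the METH-treatment group. In all 4 genes the METH and PBS libraries did not overlap, as in 64.0% of the genes of the table. The exact permutation test gave p = 0.1 for each of the 4, the smallest it allows.

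**Figure D1:**
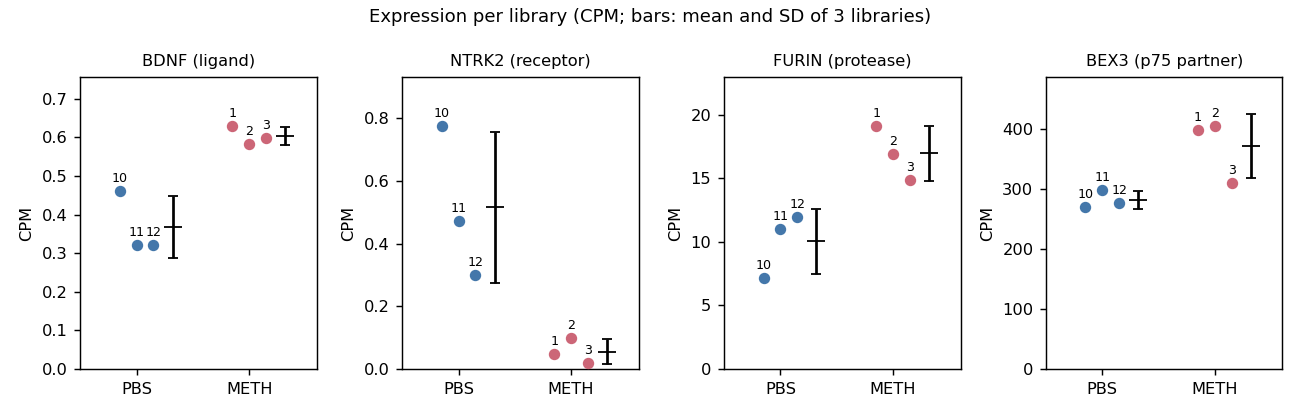
Expression of BDNF, NTRK2, FURIN and BEX3 in CPM (vertical axis, from 0) in the PBS and METH groups, with 1 point for each library marked with its number, and bars for the mean and SD of 3 libraries. In BDNF, FURIN and BEX3 the 3 METH libraries lie above the 3 PBS libraries, and in NTRK2 they lie below, at 0.019 to 0.099 CPM.

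BDNF (ENSG00000176697), the ligand, spans 27654893 to 27722058 on the minus strand of chromosome 11 (GENCODE release 29, GRCh38) and has 19 annotated transcripts. Its expression was 0.460 CPM in PBS 10, 0.322 in PBS 11 and 0.322 in PBS 12. In the METH libraries it was 0.630 CPM in METH 1, 0.583 in METH 2 and 0.598 in METH 3. The 3 METH libraries were close together and all above PBS 10, the highest of the PBS libraries. The means were 0.368 ± 0.0797 CPM under PBS and 0.604 ± 0.0240 under METH (SD, n = 3 each), with a log2 difference of 0.60 (standard error 0.313, limma adjusted p = 0.115). This did not pass the threshold, and the 95% interval of the log2 difference runs from -0.10 to 1.31.

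Few reads lie behind BDNF. The PBS libraries held 51, 28 and 30 reads and the METH libraries 54, 53 and 64. The exact Poisson 95% interval of PBS 10, 0.343 to 0.605 CPM, overlaps that of each METH library, for instance 0.437 to 0.763 CPM in METH 2. Summed over the libraries there were 171 METH reads and 109 PBS reads, a ratio of 1.61 after scaling to the library totals (exact 95% interval 1.26 to 2.06). These intervals cover counting error only and not the spread between libraries. With limma fitted without a trend between variance and expression, the adjusted p of BDNF was 0.0621. On the recovered reads it was 0.139 by edgeR and 0.205 by DESeq2, so that of these models only limma without a trend called BDNF. BDNF carries the authors' mark of significance, as does every gene of the table. Why the authors' call differs was not tested. The antisense gene BDNF-AS and the sense-overlapping AC103796.1 share part of the BDNF locus and were not analysed here, and whether the counting used strand is not given in the sources used here.

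NTRK2 (ENSG00000148053), the receptor, spans 84668551 to 85027070 on the plus strand of chromosome 9, and no other annotated gene overlaps it. Its expression was 0.776 CPM in PBS 10, 0.472 in PBS 11 and 0.301 in PBS 12. In the METH libraries it was 0.047 CPM in METH 1, 0.099 in METH 2 and 0.019 in METH 3. Every METH library was below every PBS library, although the PBS libraries themselves were widely spread. NTRK2 fell from 0.516 ± 0.241 to 0.0550 ± 0.0406 CPM (SD, n = 3 each), with a log2 difference of -1.95 (standard error 0.413, limma adjusted p = 0.0153). Ranked by log2 fold change, it was number 45 from the lowest among the 4101 genes.

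The decrease of NTRK2 was past the threshold whichever library was left out, with log2 fold changes from -2.22 to -1.66 and limma adjusted p-values up to 0.0503. How large it was varied with the amount added, and came to -3.12 with 0.01 added and -0.51 with 1 added. The reads numbered 86, 41 and 28 in the PBS libraries and 4, 9 and 2 in the METH libraries. In sum, 155 PBS reads stood against 15 METH reads, a level in CPM 10.1 times higher with PBS (exact 95% interval 5.92 to 18.4, counting error only). NTRK2 has 8 annotated transcripts, among them forms of TrkB with and without the kinase domain, and the gene-level values cannot tell them apart. In RNA from whole cultures, fewer cells that express a gene and less RNA per cell cannot be told apart either.

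FURIN (ENSG00000140564), the convertase that cuts precursor neurotrophins in the secretory pathway, spans 90868592 to 90883458 on the plus strand of chromosome 15. Its expression was 7.11 CPM in PBS 10, 11.01 in PBS 11 and 11.9 in PBS 12. In the METH libraries it was 19.1 CPM in METH 1, 16.9 in METH 2 and 14.8 in METH 3. The lowest METH library was above the highest PBS library, and PBS 10 lay apart from the other two PBS libraries. FURIN rose from 10.0 ± 2.56 to 16.9 ± 2.14 CPM (SD, n = 3 each), with a log2 difference of 0.78 (standard error 0.252, limma adjusted p = 0.0420). Between 788 and 1638 reads per library lie behind these values.

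The increase of FURIN was not past the threshold without METH 1 (log2 fold change 0.69, limma adjusted p = 0.130) or without METH 2 (0.78, limma adjusted p = 0.122). Without PBS 10 the log2 fold change was 0.55, and it passed (limma adjusted p = 0.0705). By edgeR and DESeq2 on the recovered reads the adjusted p-values were 0.0434 and 0.0252. FES, the kinase gene that begins 237 bp beyond the end of FURIN on the same strand, and was not analysed here, is its nearest neighbour.

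BEX3 (ENSG00000166681), the p75 partner, spans 103376340 to 103378077 on the plus strand of chromosome X. Its expression was 270 CPM in PBS 10, 297 in PBS 11 and 276 in PBS 12. In the METH libraries it was 397 CPM in METH 1, 405 in METH 2 and 309 in METH 3. METH 1 and METH 2 stood well above the PBS libraries, while METH 3 was 309 CPM against 297 CPM in the highest PBS library. The means were 281 ± 14.4 CPM under PBS and 370 ± 53.4 under METH (SD, n = 3 each), with a log2 difference of 0.39 (standard error 0.219, limma adjusted p = 0.134). This did not pass the threshold, and the 95% interval of the log2 difference runs from -0.10 to 0.88. Between 25690 and 36763 reads per library lie behind BEX3. With METH 3 left out the log2 fold change was 0.51, and the limma adjusted p was 0.118.

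Levels of different genes can be compared only per length, and each mean was divided by the exonic length of the gene in GENCODE (7740 bp for BDNF, 20363 bp for NTRK2, 4728 bp for FURIN and 1080 bp for BEX3). With PBS the order of levels was BEX3 at 260 ± 13.3, FURIN at 2.12 ± 0.542, BDNF at 0.0475 ± 0.0103 and NTRK2 at 0.0254 ± 0.0118 CPM per kb (SD, n = 3 each). With METH it was BEX3 at 343 ± 49.4, FURIN at 3.58 ± 0.454, BDNF at 0.0780 ± 0.00310 and NTRK2 at 0.00270 ± 0.00199 CPM per kb. The order was thus the same in both groups, with ligand and receptor at the low end, and the libraries of neighbouring genes in this order did not overlap within a group. The exonic length counts every annotated exon once, so a gene whose cells use a short transcript is placed too low.

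The log2 ratio of BDNF to NTRK2 was taken within each library, per kb and with 0.1 CPM added to both genes, more than NTRK2 itself measured in any METH library. It was 0.75 in PBS 10, 0.96 in PBS 11 and 1.47 in PBS 12. In the METH libraries it was 3.71 in METH 1, 3.17 in METH 2 and 3.95 in METH 3. Per kb, ligand stood above receptor in all 6 libraries. In CPM not divided by length, NTRK2 was above BDNF in PBS 10 (0.776 against 0.460) and PBS 11 (0.472 against 0.322). The order in these libraries thus rests on the exonic lengths used. The log2 ratio was larger in each METH library than in any PBS library, by 2.55 between the means (exact permutation test, 2-sided, p = 0.1). With 1 CPM added the difference was 0.74, and with 0.01 added it was 3.84. The log2 ratio of FURIN to BDNF was 5.12 ± 0.631 with PBS and 5.30 ± 0.155 with METH (SD, n = 3 each, exact permutation p = 1.0). The log2 ratio of BEX3 to FURIN was 6.96 ± 0.362 with PBS and 6.57 ± 0.118 with METH (exact permutation p = 0.2), within the spread of the PBS libraries from 6.65 to 7.36 for METH 2 only.

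The genes around these 4 were taken from lists of the neurotrophin pathway, of other neurotrophic ligands and receptors, and of TCEAL neighbours of the BEX genes. Of the 217 genes on 12 lists, 71 are in the table, and 32 of these were up-regulated and 13 down-regulated at a limma adjusted p under 0.1, against 33.3% and 35.8% of the whole table, with a median log2 fold change of 0.50 against 0.11 over the table. The 71 include BDNF, NTRK2, FURIN and BEX3. They also include 14 genes of other neurotrophic ligands and receptors and 4 TCEAL genes, so they do not stand for the neurotrophin pathway alone. The counts were 15 and 9 without METH 1, 14 and 8 without METH 2, and 20 and 11 without PBS 12. Of the 45 genes past the threshold, 19 stayed past it whichever library was left out.

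**Figure D2:**
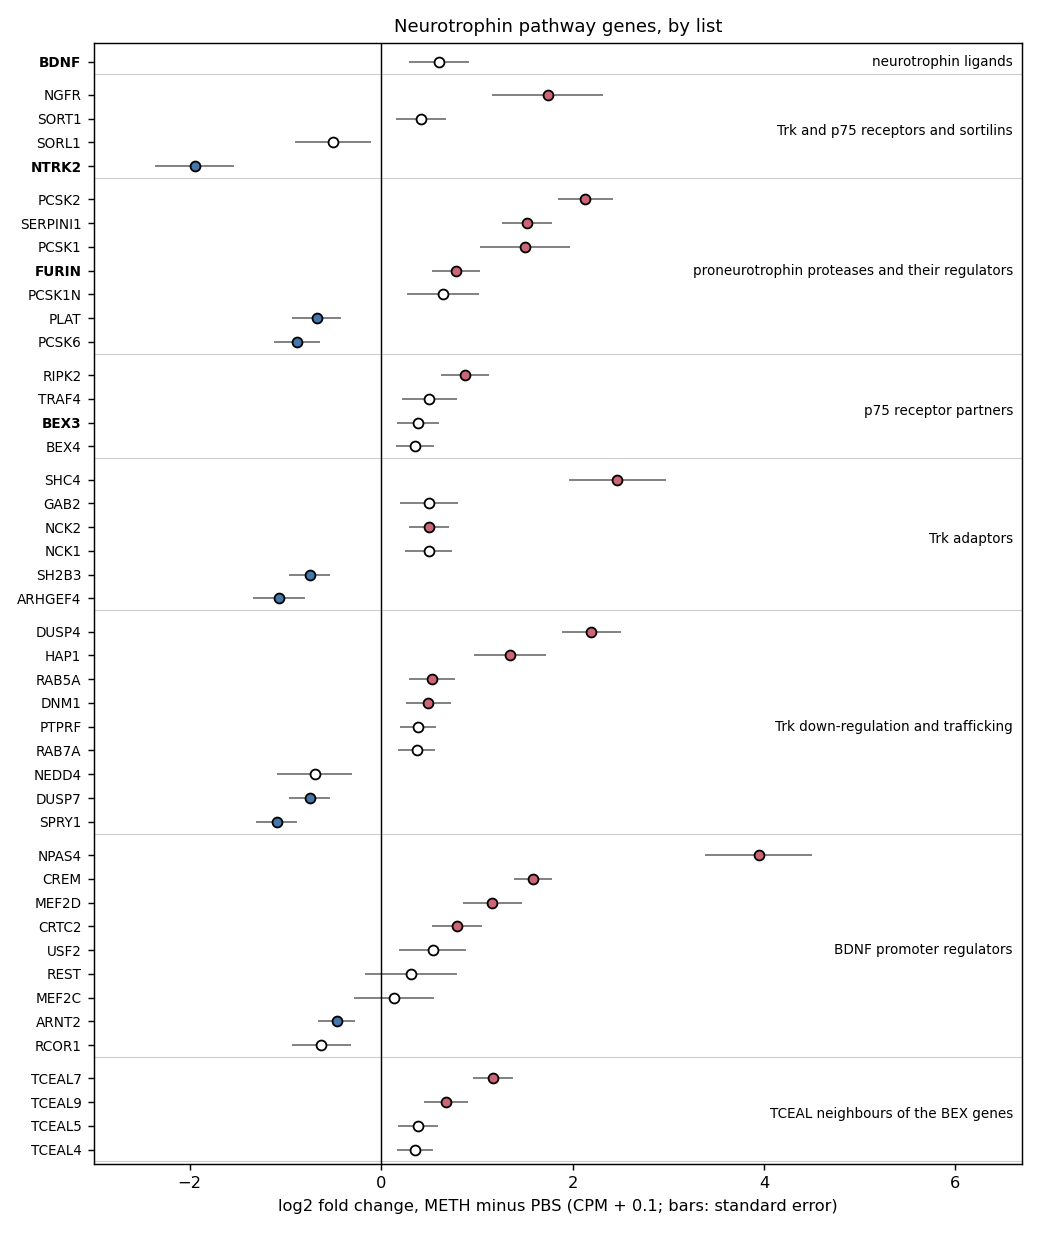
Log2 fold change (horizontal axis, METH minus PBS, 0.1 CPM added, bars for the standard error) of genes of 8 lists, ordered within each list, with BDNF, NTRK2, FURIN and BEX3 in bold. Red points are up-regulated and blue points down-regulated at a limma adjusted p under 0.1, and white points did not pass. NTRK2, at -1.95, is the lowest of the receptors and sortilins shown.

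Of the 12 receptor and sortilin genes listed, 5 are in the table. NGFR, which encodes p75, had the opposite direction to NTRK2. It was at 1.02 CPM in PBS 10, 7.24 in PBS 11 and 2.88 in PBS 12, and at 13.4 in METH 1, 8.32 in METH 2 and 7.95 in METH 3. The groups did not overlap, but PBS 11 was near METH 2 and METH 3. The log2 difference came to 1.74 (standard error 0.581, limma adjusted p = 0.0451), and it was not past the threshold without METH 1 (log2 difference 1.50, limma adjusted p = 0.122) or PBS 12 (1.76, limma adjusted p = 0.111). The NGFR difference was 1.05 without PBS 10 and 2.41 without PBS 11, so that its size depended on these libraries. SORT1, which encodes the p75 co-receptor sortilin, measured 8.07 ± 1.95 CPM with PBS against 10.8 ± 2.40 with METH (SD, n = 3 each, log2 fold change 0.42, limma adjusted p = 0.167), and passed without PBS 10 (limma adjusted p = 0.0846). The related sorting receptor SORL1 gave a log2 difference of -0.51 (limma adjusted p = 0.246).

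**Figure D3:**
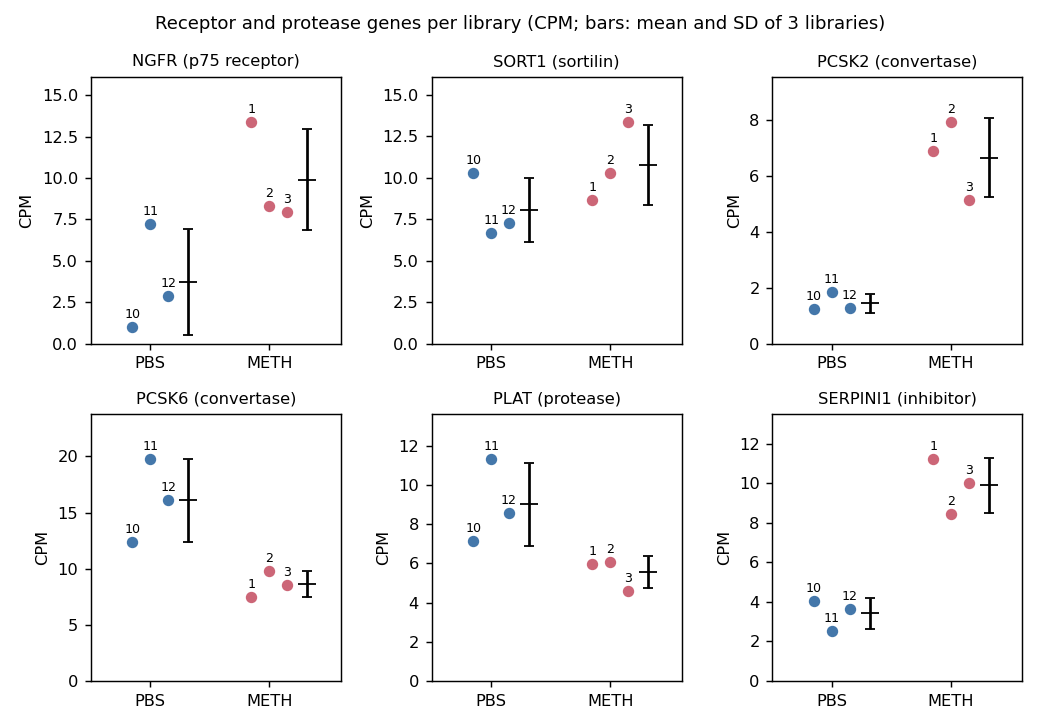
Expression of NGFR, SORT1, PCSK2, PCSK6, PLAT and SERPINI1 in CPM (vertical axes, from 0) in the PBS and METH groups, with 1 numbered point for each library and bars for the mean and SD of 3 libraries. The METH libraries lie above the PBS libraries in NGFR, PCSK2 and SERPINI1, below them in PCSK6 and PLAT, and overlap them in SORT1.

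Of 21 protease genes and their regulators, 7 are in the table. Of these, 4 were up-regulated and 2 down-regulated, against 33.3% and 35.8% of the whole table. PCSK2, a convertase of the regulated secretory pathway, rose more than FURIN, from 1.44 ± 0.337 to 6.67 ± 1.41 CPM (SD, n = 3 each), with a log2 difference of 2.13 (standard error 0.289, limma adjusted p = 0.00401). PCSK6, another convertase, fell from 16.1 ± 3.71 to 8.60 ± 1.16 CPM, with a log2 difference of -0.88 (limma adjusted p = 0.0291). SERPINI1, which encodes neuroserpin, an inhibitor of tissue plasminogen activator, rose from 3.42 ± 0.783 to 9.90 ± 1.39 CPM, with a log2 difference of 1.52 (limma adjusted p = 0.00897). All 3 were past the threshold whichever library was left out. PLAT, the gene of tissue plasminogen activator itself, gave a log2 difference of -0.67 (limma adjusted p = 0.0617) and was past the threshold among the fits without a library only in that without PBS 10. PCSK1, a convertase with 0.127 ± 0.121 CPM under PBS against 0.489 ± 0.140 under METH, passed (limma adjusted p = 0.0390) except without METH 1 (limma adjusted p = 0.111). PCSK1N, a convertase inhibitor, did not pass (log2 fold change 0.65, limma adjusted p = 0.146). PLAT, PCSK1 and PCSK1N were chosen after their values were seen.

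BEX3 stands among 18 listed genes of p75 partners, of which 4 are in the table. RIPK2, a kinase that binds p75, was up-regulated, from 7.71 ± 0.983 to 14.4 ± 3.61 CPM (SD, n = 3 each), with a log2 difference of 0.87 (limma adjusted p = 0.0304), and did not pass without METH 2 (limma adjusted p = 0.127). BEX4, of the same family as BEX3, measured 55.1 ± 9.10 CPM with PBS against 69.8 ± 3.75 with METH (SD, n = 3 each), with a log2 difference of 0.35 (limma adjusted p = 0.132), close to the 0.39 of BEX3. It passed without PBS 11 (limma adjusted p = 0.0622). The TCEAL genes are kin of the BEX genes and lie beside them on chromosome X. Of 9 listed, 4 are in the table, 2 of them up-regulated against 33.3% of the whole table. In all 4 the METH libraries were above the PBS libraries, as in 1270 of the 4101 genes. TCEAL7 rose from 34.5 ± 6.89 to 76.6 ± 2.66 CPM, with a log2 difference of 1.17 (limma adjusted p = 0.00968). TCEAL9, the coding gene nearest to BEX3 at 17878 bp, gave a log2 difference of 0.68 (limma adjusted p = 0.0472) and did not pass without PBS 12, METH 1 or METH 2, where the limma adjusted p-values were 0.120, 0.1005 and 0.128.

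Below the receptor, 6 of 25 listed Trk adaptor genes are in the table, 2 up-regulated and 2 down-regulated. The shares of the whole table were 33.3% and 35.8%. SHC4, a Shc adaptor, rose from 0.475 ± 0.316 to 2.95 ± 1.26 CPM (SD, n = 3 each), with a log2 difference of 2.47 (limma adjusted p = 0.0137). ARHGEF4, a guanine nucleotide exchange factor for small GTPases, fell from 12.3 ± 3.30 to 5.69 ± 0.748 CPM, with a log2 difference of -1.06 (limma adjusted p = 0.0236). Of 25 listed genes that curb Trk signals or move the receptor, 9 are in the table. Here 4 were up-regulated and 2 down-regulated, against the same shares of the whole table. DUSP4, a MAP kinase phosphatase, rose from 63.6 ± 29.9 to 274 ± 37.0 CPM, with a log2 difference of 2.20 (limma adjusted p = 0.00476). SPRY1, an inhibitor of receptor tyrosine kinase signals, fell from 30.2 ± 5.43 to 14.1 ± 1.56 CPM, with a log2 difference of -1.09 (limma adjusted p = 0.0123). These 4 genes passed whichever library was left out.

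Upstream of the ligand, 9 of 20 listed regulators of the BDNF promoters are in the table. Of these, 4 were up-regulated and 1 down-regulated, against 33.3% and 35.8% of the whole table. CREM, a cAMP-responsive factor of the CREB family, rose from 34.2 ± 5.11 to 102 ± 9.15 CPM (SD, n = 3 each), with a log2 difference of 1.58 (limma adjusted p = 0.00337). NPAS4, an activity-regulated factor, rose from 0.604 ± 0.409 to 10.7 ± 5.83 CPM, with a log2 difference of 3.95 (limma adjusted p = 0.00473). MEF2D gave a log2 difference of 1.16 (limma adjusted p = 0.0268) and the CREB coactivator CRTC2 one of 0.79 (limma adjusted p = 0.0434), the latter not past the threshold without METH 1 (limma adjusted p = 0.131) or METH 2 (limma adjusted p = 0.140). REST, a repressor of neuronal genes, gave a log2 difference of 0.31 with overlapping libraries (limma adjusted p = 0.541) and was named after its values were seen. Of 15 listed genes that respond to Trk signals, 8 are in the table, 7 up-regulated and 1 down-regulated, against 33.3% and 35.8% of the whole table. The list was chosen with earlier results of these data known, so this count cannot show an excess of the Trk response. FOS was among the up-regulated (log2 fold change 2.79, limma adjusted p = 0.00628). In 2 of the 8 the METH and PBS libraries overlapped. VGF was 1 of these (log2 fold change 1.41, limma adjusted p = 0.0556), and it passed in only 2 of the fits without a library.

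For each of the 4 genes, the genes with the most similar profile over the 6 libraries were found by the root mean square difference of the log2 values, each gene centred on its own mean, among 4088 genes. BDNF was closest to CGRRF1 (0.0679), RALA (0.0724) and PRPF38B (0.0770), where the median gene differed by 0.608. NTRK2 was closest to FANCD2 (0.127), MICAL2 (0.229) and C4orf36 (0.232), with a median of 1.19. FURIN was closest to PTGES (0.0587), MBOAT7 (0.0719) and GNG11 (0.0744), with a median of 0.664, and BEX3 to MCCC1 (0.0464), TRIM67 (0.0472) and FHL1 (0.0541), with a median of 0.530. FANCD2, the closest to NTRK2, fell from 10.9 ± 3.52 to 3.09 ± 0.827 CPM (SD, n = 3 each), with a log2 difference of -1.76 (limma adjusted p = 0.00964). These are descriptions over 6 libraries of a table selected on the difference between the groups.

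Markers of cell type were counted as well. Those in the table had been selected, like all its genes, for a difference between the groups, and the other markers were not analysed here. Of 18 markers of adrenergic neuroblastoma cells, 9 are in the table, 7 down-regulated and 2 up-regulated, against 35.8% and 33.3% of the whole table. None was at 0 in any library. Their summed level was 1117 to 1215 CPM in the PBS libraries and 947 to 1043 CPM in the METH libraries. GATA2 was among those that fell, but did not pass without METH 1 (limma adjusted p = 0.119) or METH 2 (limma adjusted p = 0.122). The 2 that rose were CHGB, from 243 ± 23.2 to 459 ± 48.1 CPM, and SLC18A2, from 0.417 ± 0.129 to 1.38 ± 0.240 CPM (SD, n = 3 each). Of 16 markers of mesenchymal or Schwann-like cells, 5 are in the table, 4 of them up-regulated. The other, NOTCH2, gave a log2 difference of -0.43 with overlapping libraries (limma adjusted p = 0.168). Of the 4 that rose, only FOSL2 was past the threshold whichever library was left out, and SNAI2, FOSL1 and VIM were not. The summed level of the 5 was 280 to 489 CPM with PBS and 562 to 846 CPM with METH, most of it VIM. The part of these markers in the values of BDNF, NTRK2, FURIN and BEX3 was not tested.

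**Figure D4:**
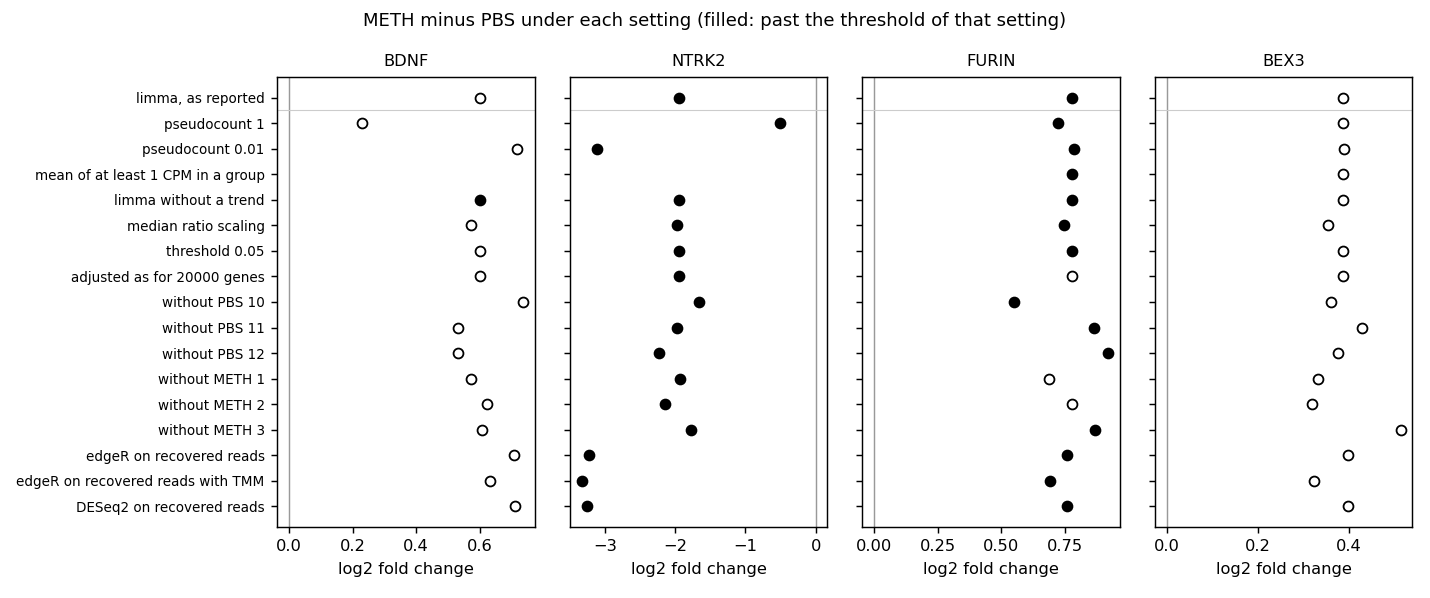
Log2 fold change (horizontal axes, METH minus PBS) of BDNF, NTRK2, FURIN and BEX3 under the reported limma comparison and each alternative (rows), filled where the adjusted p was under the threshold of that alternative. The direction is the same in each alternative shown, NTRK2 is filled throughout, BEX3 is open throughout, and the filter at 1 CPM has no point for BDNF and NTRK2. Changes of threshold, adjustment, filter or variance trend leave the log2 fold change as it is.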

How the data were processed

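The deposited table holds CPM values of 6 libraries (headed FPKM by the authors), the authors' mean CPM of each group, and their fold change (a ratio), log2 fold change and p-values from DESeq2, which were not used here. The aligner, counter and genome build are not given in the sources used here. All 4101 genes are marked significant. The step of each column gave its denominator, and at least 99.976% of the values of each column were whole reads within 0.00055 CPM.

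METH and PBS libraries were compared with limma 3.58.1 under R 4.3.3, with its trend of variance on expression, fitted to log2(CPM + 0.1) of all genes. edgeR (4.0.16, quasi-likelihood test) and DESeq2 (1.42.0) were run on the recovered reads as alternatives. Libraries were not paired. The members and lists were chosen with earlier results of these data known. The genes named are the 4 members, per list up to 4 genes with the largest change and 1 CPM or more on average in either group, the 3 genes most like each member, and neighbours. Exceptions are marked, and some genes that this rule names are not reported here. Annotation came from GENCODE release 29 (GRCh38), where 4093 identifiers were found. In simulated data of 4101 genes limma recovered 86 of 100 genes changed 2-fold and 100 of 100 changed 4-fold, with 19 false calls. The changed genes were drawn from those above 1 CPM on average, so the simulation does not cover the levels of BDNF and NTRK2. It gave all genes the same dispersion and changed only a small part of them, unlike the real table. It is a check of the code and does not measure how reliable the calls reported here are. Python 3.11.15, scipy 1.17.1 and matplotlib 3.10.9 were also used. The alternatives are given in the closing section.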

Additional observations from a re-analysis of the deposited data

How the results depend on the processing

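BDNF, NTRK2, FURIN and BEX3 kept their direction in every alternative run, and the 39 list genes named by rule reversed in 0 of 624 fits. Many of these fits could not reverse. The threshold, the adjustment, the filter at 1 CPM and limma without a trend leave the log2 fold change as it is. Leaving out a library cannot reverse the 4 members, whose groups did not overlap. BDNF passed the threshold only with limma without a trend (log2 fold change 0.60, adjusted p = 0.0621). Over the fits without a library, FURIN ranged from 0.55 to 0.92 on the log2 scale, and with adjustment as for 20000 tested genes its limma adjusted p was 0.205 (log2 fold change 0.78) while that of NTRK2 was 0.0747. Of the 4 members, 2 passed in the reported comparison, 1 with that adjustment, 1 with the filter at 1 CPM, which removes BDNF and NTRK2, and 1 to 2 without a library. List genes up-regulated (32) and down-regulated (13) numbered 9 and 3 with that adjustment, and 14 to 39 and 8 to 14 without a library. Over the table the 1366 and 1467 calls became 696 and 783 at a threshold of 0.05, 219 and 191 as for 20000 genes, and 412 to 1551 and 563 to 1368 without a library. The log2 difference in the ratio of BDNF to NTRK2 was 0.74 with 1 added and 3.84 with 0.01 added. No paired analysis was possible because the PBS columns carry the numbers 10 to 12 while the labels number the PBS samples 1 to 3. NTRK2 with METH and BDNF are limited by reads, at 2 to 9 and at 28 to 64 per library.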

Other observations

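Beyond the neurotrophins, 14 of 31 listed genes of other neurotrophic ligands and receptors are in the table. Of these, 4 were up-regulated and 3 down-regulated, against 33.3% and 35.8% of the whole table. RET, the signalling receptor of the GDNF family and also on the list of adrenergic markers, fell from 106 ± 6.96 to 38.7 ± 2.54 CPM (SD, n = 3 each), with a log2 difference of -1.45 (limma adjusted p = 0.00337), and was past the threshold whichever library was left out. LIFR, a receptor of neuropoietic cytokines, fell from 1.32 ± 0.152 to 0.560 ± 0.1499 CPM, with a log2 difference of -1.12 (limma adjusted p = 0.0293). NRTN, the GDNF family ligand neurturin, gave a log2 difference of 0.75 with overlapping libraries (limma adjusted p = 0.0735), and its limma adjusted p was 0.164 without PBS 10, 0.173 without METH 1 and 0.177 without METH 2. Of the kinases and GTPases between receptor and nucleus, 1 of 19 listed genes of the RAS and MAP kinase arm and 2 of 18 of the PI3 kinase and AKT arm are in the table. RAP1A of the first arm gave a log2 difference of 0.45 (limma adjusted p = 0.0761), with limma adjusted p-values from 0.0729 to 0.204 over the fits without a library, and PIK3R3 of the second one of -0.48 with overlapping libraries (limma adjusted p = 0.305, and 0.0201 without PBS 11).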
